A study of Homo sapiens with 2 samples.

Results

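The EGF receptor family and its ligands were examined in cultures of MDA-MB-231, 1 given a KMO siRNA (siKMO) and 1 given a control siRNA (siCon) 48 h before. The members were 10 genes chosen by name: 6 ligands (EREG, AREG, HBEGF, TGFA, BTC and EGF) and 4 receptors (EGFR, ERBB2, ERBB3 and ERBB4). The choice was made with earlier results of these data known. Every probe set that the platform annotation assigned to exactly 1 of them was used, which gave 33 probe sets of 9 genes, of 41091 probe sets of 19775 genes in all. AREG was not analysed here. MDA-MB-231 is an established human line of triple-negative breast cancer, and KMO encodes kynurenine 3-monooxygenase, an enzyme of tryptophan breakdown. Total RNA of each condition was measured on 1 Affymetrix U133 Plus 2.0 array, so there were no replicates, no test was possible, and every difference describes this pair of cultures. The labels speak of siRNA, but the names given to the arrays contain shLUC and shK421, a style used for hairpin vectors, and which was used could not be settled.

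The ErbB receptors are transmembrane tyrosine kinases that pair with each other when a ligand binds outside the cell, and they pass the signal to the Ras-ERK and PI3K routes. EGF, TGFA and AREG bind EGFR, EREG, HBEGF and BTC bind both EGFR and ERBB4, ERBB2 has no ligand of its own, and ERBB3 binds neuregulins and signals through a partner since its own kinase is weak. The ligands are made as membrane-anchored precursors and released by metalloproteases. Triple-negative breast cancers often carry much EGFR and lack amplified ERBB2.

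Levels are values of robust multi-array averaging (RMA) on the log2 scale, on which a difference of 1 is 2-fold. Such values have no true zero, and weak probe sets sit at a background level. Each gene was read from its brightest probe set by the mean of siKMO and siCon, and it was called measured if this mean reached 6. The 15 genes of unrelated tissues with a probe set, such as the liver gene ALB, lay between 1.95 and 5.71 in siKMO and between 2.04 and 5.75 in siCon. KMO itself lay in that range with all 3 probe sets, at 2.92, 2.51 and 2.35 in siKMO and 2.95, 2.37 and 2.11 in siCon, so it did not check the labels. The hormone receptors ESR1 and PGR lay under 6, as did the leukocyte genes PTPRC and CD3E and the endothelial genes PECAM1 and CDH5, while VIM and CD44 were measured, at 12.96 and 11.31 in siKMO and 12.90 and 11.43 in siCon. The epithelial cadherin CDH1, picked after its values were seen, was measured too, at 8.62 in siKMO and 10.54 in siCon. The line was named from the labels, and its identity was not tested with these genes. In bulk RNA, fewer cells of a kind and less RNA per cell cannot be told apart.

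Of the 10 members, 6 were measured (EREG, HBEGF, TGFA, EGFR, ERBB2 and ERBB3), 3 lay under the minimum (BTC, EGF and ERBB4) and 1 was not analysed. The family did not move as a block. EREG, the ligand epiregulin, was higher in siKMO, ERBB3 was lower, and the other 4 measured members differed by less than 1.5-fold. Thus 2 of 6 (33.3%) differed by at least 2-fold, against 2.25% of all 8997 measured genes, and 1 was on each side, against 0.856% of all measured genes that were higher and 1.39% that were lower. With levels under 6 taken as 6, EREG alone passed 2-fold, and with a minimum level of 7 neither gene was measured and the count was 0 of 4. At 1.5-fold the count was the same 2 of 6, against 10.6% of all measured genes. Both genes had 1 array under the level of 6 and reached the minimum mean through the other array. Genes near that level differed by 2-fold a little more often, with 1.23% higher and 2.28% lower among the 2107 genes with a mean of 6 to 7. The members were chosen with earlier results of these data known. The 2 of 6 therefore describes them and cannot show that the family differed more often than other genes. The median difference of the 6 members was 0.003, beside 0.04 over all measured genes, with 3 members higher and 3 lower in siKMO.

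**Figure D1:**
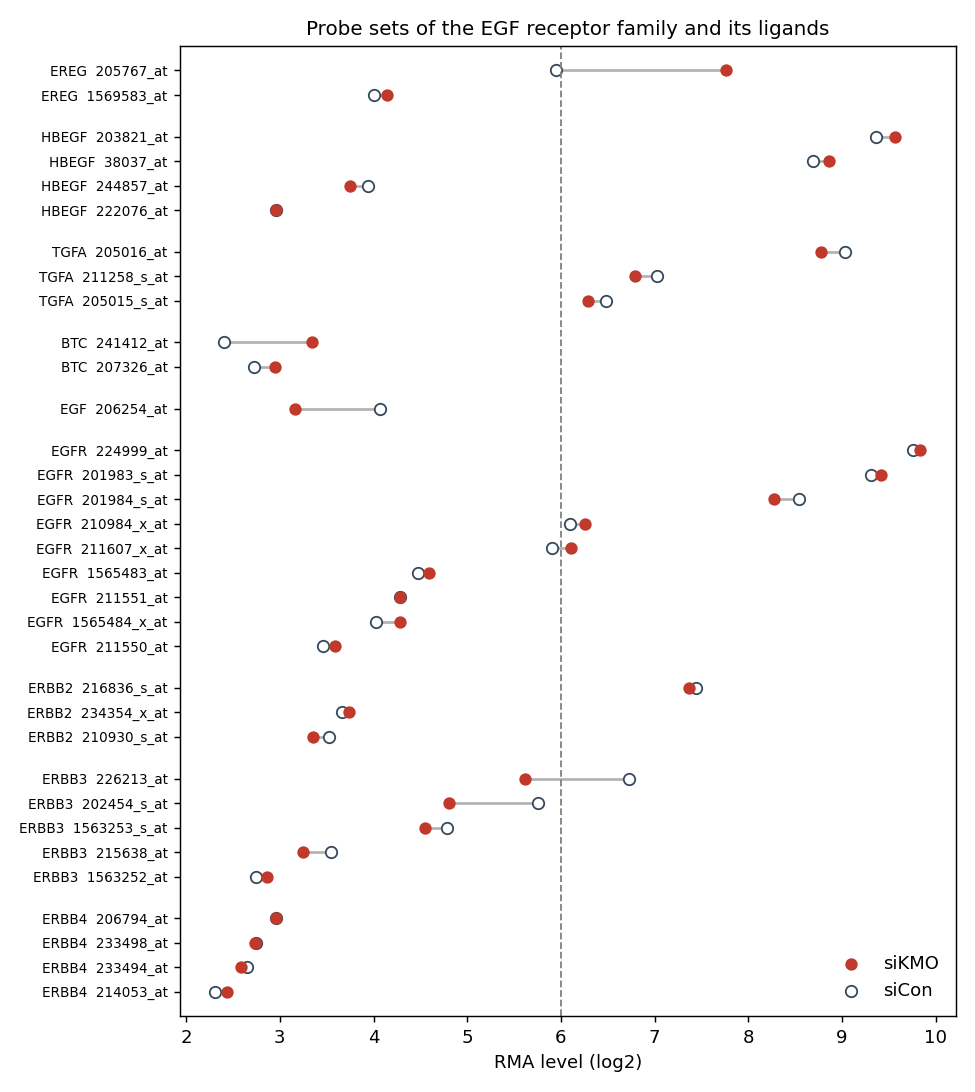
RMA level on the log2 scale of each of the 33 probe sets of the family, with siKMO as filled red points and siCon as open points joined by a line, 1 array each. The dashed line marks the level of 6. The long lines are those of EREG, at 7.77 in siKMO and 5.94 in siCon, of ERBB3, at 5.61 and 4.81 in siKMO and 6.73 and 5.75 in siCon, and, far under 6, of BTC and EGF.

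Among the ligands, EREG stood apart from HBEGF and TGFA. EREG is a growth factor of epithelial cells that is made by many tumours. Its brighter probe set read 7.77 in siKMO and 5.94 in siCon. The siCon level lay just under 6, so the fold is given as a bound: EREG was at least 3.40-fold higher in siKMO, and the deposited difference was 1.82. Of the 8997 measured genes, 15 (0.167%) had a larger absolute difference. The other EREG probe set stood near background, at 4.14 in siKMO and 0.14 lower in siCon, and at this level it neither backed nor opposed the first, so the EREG difference rests on 1 probe set.

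HBEGF, a heparin-binding ligand that also serves as the diphtheria toxin receptor, was slightly higher in siKMO with its measured probe sets. These read 9.57 and 8.87 in siKMO, against 9.36 and 8.69 in siCon, differences of 0.21 and 0.18. Both pointed one way, but 50.3% of measured genes had a larger absolute difference than HBEGF, so it sat in the middle of the distribution, and with the median of its 4 probe sets the difference was -0.01. Its other probe sets lay near background, 1 at 3.75 in siKMO and 3.95 in siCon and 1 at the same 2.96 on both arrays.

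TGFA, a ligand that carcinoma cells often use to stimulate their own EGFR, was slightly lower in siKMO with all 3 probe sets. They read 8.78, 6.79 and 6.29 in siKMO, against 9.03, 7.03 and 6.48 in siCon. The differences of -0.25, -0.24 and -0.19 were close to each other, although 42.4% of measured genes had a larger absolute difference. Probe sets of a gene share the same RNA and array, so their likeness speaks to the reading of the transcript and not to a repeat of the experiment.

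BTC (betacellulin) and EGF, the ligand that gave the family its name, lay at background on both arrays. The BTC probe sets read 3.35 and 2.94 in siKMO, against 2.41 and 2.73 in siCon, differences of 0.94 and 0.22. EGF had 1 probe set, at 3.16 in siKMO and 4.07 in siCon, a difference of -0.91. Differences of this size do not give a fold, since both arrays lay under 6. Of the family's 20 probe sets under 6, 3 differed by at least 1.5-fold (1 each of BTC, EGF and ERBB3), against 5.11% of the 26260 such probe sets of all genes.

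The sequence before the start of the 3 measured ligand genes is shown, since EREG differed by over 2-fold and the others did not. The windows are the 250 bases before the annotated start in RefSeq, build GRCh38.p14, where 9 of the 10 members had an entry. They run 5′ to 3′ on the strand of the gene. Capitals mark exact matches on either strand to 5 motifs, and overlapping matches run together. The TATA box was searched as TATAAA, the CCAAT box by the letters of its name and the GC box as GGGCGG. The AP-1 site was searched as TGANTCA and the cAMP response element as TGACGTCA. The EREG window is chr4:74364895-74365144 on the plus strand, the HBEGF window chr5:140346604-140346853 on the minus strand and the TGFA window chr2:70553827-70554076 on the minus strand.
EREG: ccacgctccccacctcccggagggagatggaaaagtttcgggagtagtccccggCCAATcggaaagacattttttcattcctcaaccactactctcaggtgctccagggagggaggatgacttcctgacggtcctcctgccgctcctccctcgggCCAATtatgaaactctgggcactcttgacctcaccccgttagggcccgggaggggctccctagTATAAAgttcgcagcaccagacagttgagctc
HBEGF: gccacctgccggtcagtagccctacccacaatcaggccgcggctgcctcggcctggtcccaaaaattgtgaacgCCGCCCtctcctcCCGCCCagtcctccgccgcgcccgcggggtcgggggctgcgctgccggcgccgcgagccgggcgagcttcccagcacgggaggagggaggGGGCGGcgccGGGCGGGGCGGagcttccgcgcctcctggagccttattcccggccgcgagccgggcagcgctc
TGFA: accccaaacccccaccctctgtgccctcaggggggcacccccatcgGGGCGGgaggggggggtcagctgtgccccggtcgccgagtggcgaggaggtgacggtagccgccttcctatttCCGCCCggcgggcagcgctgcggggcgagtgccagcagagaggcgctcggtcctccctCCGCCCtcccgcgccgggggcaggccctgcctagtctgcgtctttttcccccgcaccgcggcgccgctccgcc

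The EREG window held 1 TATA box, whose first base lay 32 bases before the start, and 2 CCAAT boxes, 95 and 196 bases before it, with no GC box. The HBEGF window held 5 GC boxes and the TGFA window 3, and neither held a TATA or CCAAT box. The share of G and C was 58.0% in the EREG window, 76.4% in that of HBEGF and 75.6% in that of TGFA. Of all 35116 windows of this length, 10.7% held TATAAA, 32.0% CCAAT, 42.6% GGGCGG, 6.57% TGANTCA and 1.65% TGACGTCA. None of the 3 windows printed held an AP-1 or cAMP response element match. A second annotated start of TGFA had no match to any of the 5 motifs in its window. These matches describe the letters of the windows and no factor was measured at them.

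EREG lies in a row of ligand genes on chromosome 4, with EPGN before it and AREG and BTC after it among protein-coding genes. EPGN and AREG were not analysed here, and BTC lay under 6. The nearest measured gene on the one side, MTHFD2L, a mitochondrial folate enzyme, read 7.83 in siKMO and 7.46 in siCon, a difference of 0.37. On the other side it was RCHY1, a ubiquitin ligase, at 7.83 in siKMO and 7.98 in siCon, a difference of -0.15. The chemokine genes further along went both ways: CXCL1 read 10.66 in siKMO and 9.94 in siCon, and CXCL2 read 9.09 in siKMO and 9.82 in siCon, differences of 0.73 and -0.73. The measured genes around EREG thus shared neither the size nor, as a group, the direction of its difference. They were chosen by position after the values of EREG had been seen.

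**Figure D2:**
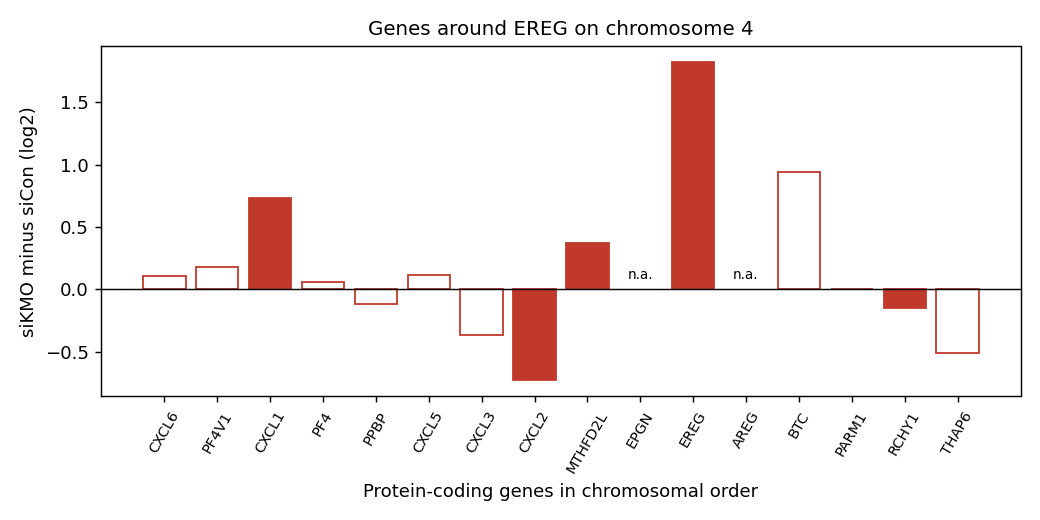
Difference in RMA level, siKMO minus siCon on the log2 scale, of EREG and the protein-coding genes around it on chromosome 4, in chromosomal order. Filled bars are genes with a mean level of at least 6, open bars genes under it, and n.a. marks genes not analysed here. EREG is at 1.82, with MTHFD2L at 0.37, CXCL1 at 0.73 and CXCL2 at -0.73.

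Among the receptors, EGFR was nearly the same on both arrays. The probe set used for the gene read 9.84 in siKMO and 9.76 in siCon, a difference of 0.08, and 79.7% of measured genes had a larger absolute difference. The other 4 probe sets above the minimum read 9.42, 8.27, 6.25 and 6.11 in siKMO, against 9.31, 8.54, 6.10 and 5.90 in siCon. Their differences of 0.11, -0.26, 0.15 and 0.20 did not share a sign, so the direction of EGFR was not settled. The 4 probe sets under 6 differed by 0 to 0.27.

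ERBB2, the partner receptor that trastuzumab binds, was also near equal. Its measured probe set read 7.37 in siKMO and 7.44 in siCon, a difference of -0.07. A larger absolute difference was seen in 81.1% of measured genes. The remaining ERBB2 probe sets lay under 4 on both arrays, with differences of 0.08 and -0.18.

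ERBB3, the neuregulin receptor that recruits PI3K through its phosphorylated tail, was the only measured receptor at least 1.5-fold apart, and it was lower in siKMO. Its measured probe set read 5.61 in siKMO and 6.73 in siCon. With the siKMO level taken as 6 it was at least 1.66-fold lower in siKMO, and the deposited difference was -1.12. Of measured genes, 121 (1.34%) had a larger absolute difference. Another probe set lay under 6 on both arrays but went the same way, at 4.81 in siKMO and 5.75 in siCon, a difference of -0.94, where 5.72% of the 4876 probe sets with a mean of 5 to 6 were at least 1.5-fold lower. The remaining 3 probe sets stood under 5, near background, with differences of -0.24, -0.30 and 0.11. At this level they neither backed nor opposed the measured probe set. Of the epithelial genes listed as markers, EPCAM, an epithelial adhesion molecule, read 7.85 in siKMO and 8.75 in siCon, while differences of 0.17 and 0.15 were found for the keratin genes KRT8 and KRT18. Further epithelial genes, picked after their values were seen, were lower beside ERBB3. The cadherin CDH1 read 8.62 in siKMO and 10.54 in siCon, and the tight junction gene CLDN7 read 7.33 in siKMO and 8.44 in siCon. Differences of -1.61, -1.01 and -0.54 were found for CDH3, CD24 and CLDN4. The listed markers went both ways, so these picked genes do not show how epithelial genes went as a group. The part of the epithelial genes in the ERBB3 difference was not tested.

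ERBB4 lay at background with all 4 probe sets, which read 2.43 to 2.96 in siKMO and 2.31 to 2.96 in siCon. Its differences ran from -0.06 to 0.12, and 1 probe set had the same value on both arrays. In the family 3 probe sets had identical values, as had 9.46% of all probe sets of the array.

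**Figure D3:**
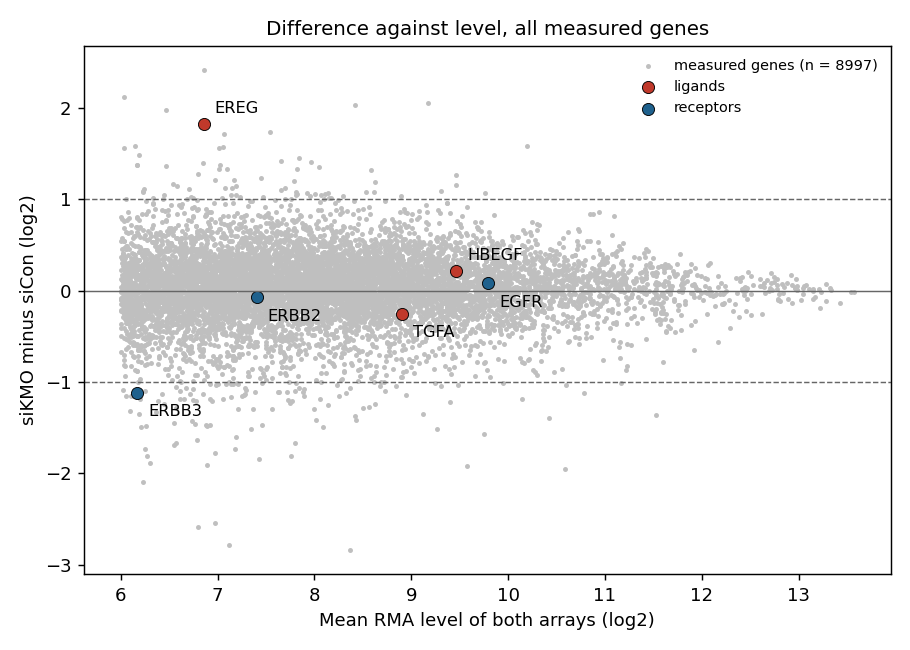
Difference in RMA level, siKMO minus siCon on the log2 scale, against the mean level of both arrays for the 8997 measured genes in grey, with measured ligands in red and measured receptors in blue. Dashed lines mark 2-fold. EREG lies at 1.82 and ERBB3 at -1.12, while HBEGF, TGFA, EGFR and ERBB2 lie between -0.25 and 0.21, inside the grey cloud.

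The genes that make, carry and limit the signal of these receptors were taken from 6 lists with 72 genes, of which 63 had a probe set used here and 55 were measured. None of the 55 was at least 1.5-fold higher in siKMO and 7 were at least 1.5-fold lower, against 5.19% and 5.41% of all measured genes. The lists were chosen with earlier results of these data known. The counts here and below therefore describe the listed genes and are no independent support. Among the further ErbB ligands, NRG1, the neuregulin that binds ERBB3 and ERBB4, was the only measured gene of 4 with a probe set. It read 9.01 in siKMO and 9.07 in siCon, a difference of -0.05, and its other measured probe set differed by 0.17.

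Of 7 measured genes of ligand shedding, 5 were lower in siKMO, against 44.1% of all measured genes, and 1 by at least 1.5-fold, against 5.41%. The median was -0.35, but -0.24 with no minimum level and -0.14 when every probe set of a gene was averaged. The gene past 1.5-fold was ADAM10, the metalloprotease that releases EGF and BTC in mouse cells, at 10.03 in siKMO and 10.92 in siCon. Its 3 probe sets differed by -1.14 to -0.78. ADAM17, which releases EREG, HBEGF and TGFA in mouse cells, read 8.94 in siKMO and 8.93 in siCon, and its probe sets ran from -0.15 to 0.01. RHBDF1 and RHBDF2, the iRhom proteins that bring ADAM17 to the cell surface, read 7.31 and 7.57 in siKMO, against 7.81 and 8.04 in siCon. The RNA of ADAM17 was thus near equal on both arrays, while that of RHBDF1 and RHBDF2 was lower in siKMO by less than 1.5-fold. Protein levels and release of ligands were not measured. ADAM17, RHBDF1 and RHBDF2 were named after their values were seen.

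Adaptors and PI3K genes differed little, with 7 of 11 measured genes lower in siKMO, against 44.1% of all measured genes, and a median of -0.07. GAB2, a docking protein that links receptors to PI3K, was the 1 gene past 1.5-fold, against 5.41% of all measured genes that were lower by as much. It read 6.83 in siKMO and 7.44 in siCon, from its only probe set. That probe set is of the _s_at kind, so GAB2 was not measured and the count was 0 when those kinds were left out. The median ran from -0.13 to -0.02 over the alternatives. Between Ras and ERK, 5 of 6 measured genes were lower, against the same 44.1%, none by 1.5-fold, and the median was -0.14. The widest difference there was that of KSR1, a scaffold of the kinase cascade, at 6.21 in siKMO and 6.61 in siCon. The sign of this median was not settled, since averaging every probe set of a gene turned it to 0.04.

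Of 19 measured genes of receptor turnover and feedback, 18 were lower in siKMO, against 44.1% of all measured genes, with a median of -0.32. This list too was chosen with earlier results known, so the count is no independent support. Of the 19 genes, 4 were lower by at least 1.5-fold, against 5.41% of all measured genes. Others lay close to 0, such as SOCS5 at -0.03, EPS15 at -0.05, CBL at -0.06 and LRIG1 at -0.07. ERRFI1, which binds the EGFR kinase and blocks it, read 11.21 in siKMO and 11.99 in siCon, a difference of -0.78 from 1 probe set. DUSP6, a phosphatase of ERK, read 9.76 in siKMO and 10.56 in siCon, and its 3 probe sets differed by -0.91 to -0.76. SPRED1, which holds Ras in check, read 8.16 in siKMO and 8.82 in siCon, and its 3 probe sets differed by -1.09 to -0.66. SPRY1, a Sprouty inhibitor of receptor kinase signalling, read 6.85 in siKMO and 7.48 in siCon, a difference of -0.64. SOCS4 was the measured gene of this list that was higher, by 0.17, and like the 4 genes close to 0 it was named after its values were seen. RNF41, a ubiquitin ligase that lowers ERBB3 protein, read 6.04 in siKMO and 6.26 in siCon. It too was named after its values were seen, for its link to ERBB3.

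Several of these feedback genes are themselves switched on by ERK, and the list of other genes driven by ERK went less uniformly. Of 11 measured, 7 were lower and 4 higher in siKMO, against 44.1% of all measured genes that were lower. The median was -0.29 and became 0.04 when probe sets of the _x_at and _s_at kinds were left out. EGR1, an immediate early transcription factor, was the 1 gene past 1.5-fold, against 5.41% of all measured genes that were lower by as much. It read 7.32 in siKMO and 8.47 in siCon, 2.22-fold lower in siKMO, and its other measured probe set differed by -0.98. All its probe sets are of the _s_at kind, so without those kinds EGR1 was not measured and 0 of 7 genes were lower by 1.5-fold. FOSL1, an AP-1 subunit, went the other way at 8.63 in siKMO and 8.27 in siCon. The other higher genes lay close to 0, CCND1 at 0.04, ETV4 at 0.10 and MYC at 0.11, although a second CCND1 probe set differed by 0.45. Of the 7 lower genes, MCL1 lay close to 0, at -0.04, and IER3 at -0.56 was the widest after EGR1. These genes besides EGR1 were named after their values were seen. Phosphorylation of the receptors or of ERK was not measured.

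**Figure D4:**
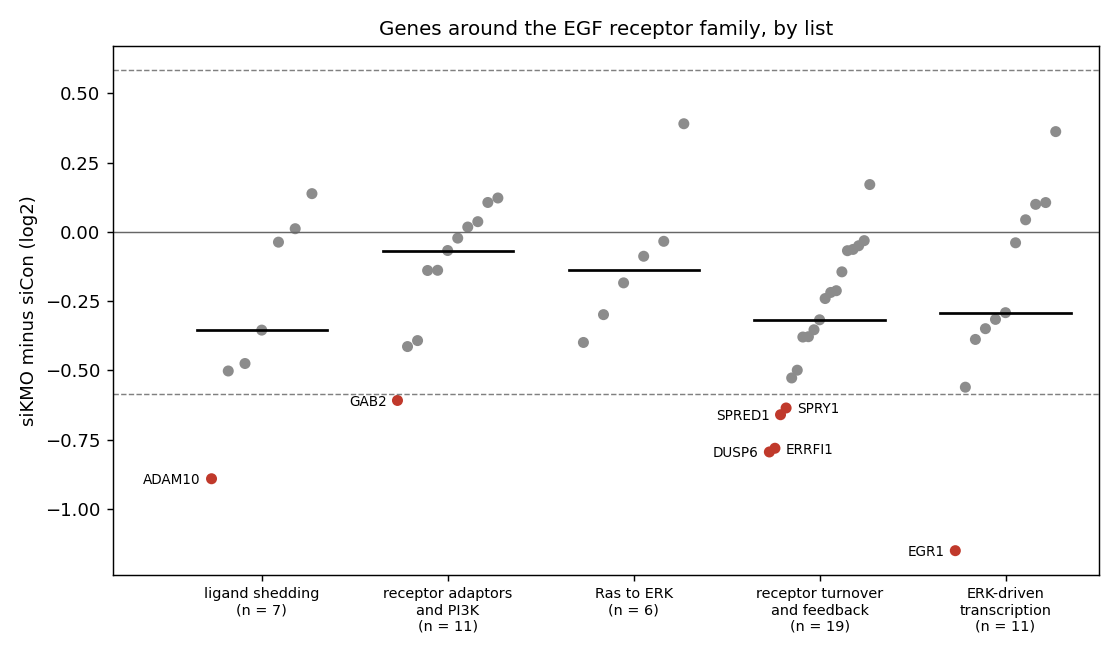
Difference in RMA level, siKMO minus siCon on the log2 scale, of each measured gene in 5 lists around the receptor family, with the median of each list as a black bar and n as the number of genes. Dashed lines mark 1.5-fold, and genes at least 1.5-fold lower are red and named. No gene lies above the upper dashed line, and 18 of 19 genes of receptor turnover and feedback lie under 0.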

How the data were processed

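RNA of 2 cultures was measured on 2 arrays, 1 per condition. The authors deposited log2 levels made by robust multi-array averaging, per the labels. Affymetrix Expression Console is the tool in the submitters' processing notes, and its version, like the set of arrays processed with these, is not given in the sources used here. RMA makes the distributions of arrays equal, which hides any shift common to all transcripts. Probe sets took their gene from the platform annotation and their current symbol from RefSeq (GRCh38.p14): of 42892 listed probe sets, 41091 carried 1 gene and were used. Differences were computed with Python 3.11.15 and pandas 2.3.3. The gene step was tested on simulated data in which 200 genes had known folds. The simulation held no compression near background, so it does not speak to how reliable differences near 6 are. The members and lists were chosen with earlier results of these data known. Named are all members, every measured list gene at least 1.5-fold apart and otherwise the widest difference of each list, besides genes marked in the text. Similar patterns across samples were not sought, since 2 arrays give 1 difference per gene. With 1 array per condition the number of arrays limits the precision, and no p-value was computed. Alternatives changed the minimum level, the choice of probe sets, the treatment of levels under 6 and a loess correction.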

Additional observations from a re-analysis of the deposited data

How the results depend on the processing

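No paired analysis was possible because each condition had 1 array. A change in a difference was counted where it exceeded 0.38, the SD of the differences of all measured genes. EREG ran from 1.77 to 1.82 and ERBB3 from -1.14 to -0.73 over the 5 of 8 alternatives in which each was measured. The -0.73 came with levels under 6 taken as 6, where the 2-fold count was 1 (EREG), against 1.96% of all genes. With a minimum of 5, with no minimum, and without _x_at and _s_at kinds, the same probe sets were read and their values could not change. These ranges therefore do not show how the other probe sets of EREG and ERBB3 would alter the differences. With a minimum of 7, and with the mean or the median of all probe sets of a gene, EREG and ERBB3 fell under the minimum, so both the 2-fold and the 1.5-fold count were 0, of 4, 3 and 3 members measured. With no minimum the 1.5-fold count was 4, through BTC and EGF. The range of HBEGF was -0.01 to 0.21, which leaves its direction unsettled. TGFA ran from -0.30 to -0.23, EGFR from 0.05 to 0.20 and ERBB2 from -0.12 to -0.07. The list alternatives were chosen after seeing the data. The shedding median ran from -0.37 to -0.14. The count of feedback genes at least 1.5-fold lower was 3 or 4 throughout. When probe sets of the _x_at and _s_at kinds were left out, GAB2 and EGR1 were not measured, 0 adaptor and 0 ERK-driven genes were lower by 1.5-fold, and the median of the ERK-driven list was 0.04. Levels near 6 are compressed by background, which limits what EREG and ERBB3 can show.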
